A study of Mus musculus with 14 samples.

Results

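The late interval of a YAP5SA time course in mouse small cell lung cancer cells was described here, by setting the 2 libraries labelled day 21 against the 2 labelled day 7. These 4 libraries, chosen by their labels, are 4 of the 14 in the series, and all genes were compared. The cells came from lung tumours of adult mice of mixed strain with alleles that include CGRPCreER/+, Rbf/f and P53f/f, which also carried Rosa26rtTA and Tet-onYAP5SA, and were grown in Hites medium. In these mice the calcitonin gene (CGRP) promoter drives a Cre recombinase that tamoxifen activates in neuroendocrine cells, where it deletes parts of genes such as Rb1 and Trp53, and the labels place the injection ("TM") 2 months in. The day 21 and day 7 libraries share all of these alleles and differ in the labels by the day alone. A Tet-on transgene is switched on by doxycycline through rtTA. YAP5SA is a form of YAP in which the serines that the Hippo kinases phosphorylate are replaced, so that those kinases do not inactivate it. The 4 days with YAP5SA libraries are 0, 3, 7 and 21, and for day 0 replicate 1 the labels leave the transgene out. No library without the transgene is labelled day 7 or day 21, so time in culture and the time with YAP5SA cannot be told apart.

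YAP, encoded by Yap1, is a transcriptional coactivator that binds DNA through the TEAD factors. The Hippo kinases keep it, and its paralogue TAZ, out of the nucleus, and several of the genes that YAP and TAZ switch on encode proteins that feed back to restrain them. In small cell lung cancer YAP is low in neuroendocrine cells and high in non-neuroendocrine ones, and the series set out to follow how it bears on these states.

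The libraries held 10520200 and 10364505 counts at day 21, against 10349392 and 10324520 counts at day 7. Levels are given as CPM, counts scaled to the size of the library after TMM, and CPM are compared between days for a gene, not between genes. The day 21 pair differed more than the day 7 pair, with a chi-square of 6.41 per degree of freedom over genes against 1.89, where 1 would be counting error alone. Among genes over 10 CPM, 60 of 10181 differed by over 1.5-fold within the day 21 pair, against 3 of 9992 within the day 7 pair. Among genes over 20 CPM at day 21 Gapdh was the most uneven, with 110.3 and 26.1 CPM in day 21 replicates 1 and 2, followed by Ubb, in the opposite direction, with 66.9 and 139 CPM. Mitochondrially encoded genes held 3.89% and 2.95% of the counts at day 21, against 2.85% and 2.86% at day 7. Nothing in the labels says that the 2 libraries of a day came from separate cultures, so p-values measure the spread between these libraries, which may be technical. In bulk RNA, fewer cells of a type and less RNA per cell cannot be told apart.

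Of 13996 genes tested, 7042 (50.3%) differed between day 21 and day 7 in edgeR's quasi-likelihood test, at a Benjamini-Hochberg adjusted p below 0.05. They comprised 3654 higher at day 21 (26.1%) and 3388 lower (24.2%), and these shares are the background for every gene list that follows. The libraries of the 2 days did not overlap for 7034 of the 7042. A call nearly requires this, so the count adds no support, and the share over all genes tested was not counted. The changes were small for most: the median log2 change was 0.60 among genes that rose and -0.51 among genes that fell. Most of the bigger changes were rises. At least 4-fold, 529 genes were higher and 91 lower, and at least 16-fold, 130 were higher and 9 lower. Of the genes that rose, 485 had a mean below 1 CPM at day 7, and 149 of those that fell had a mean below 1 CPM at day 21. A gene near 0 at day 7 could be tested through its counts at day 21, and so had to differ.

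**Figure D1:**
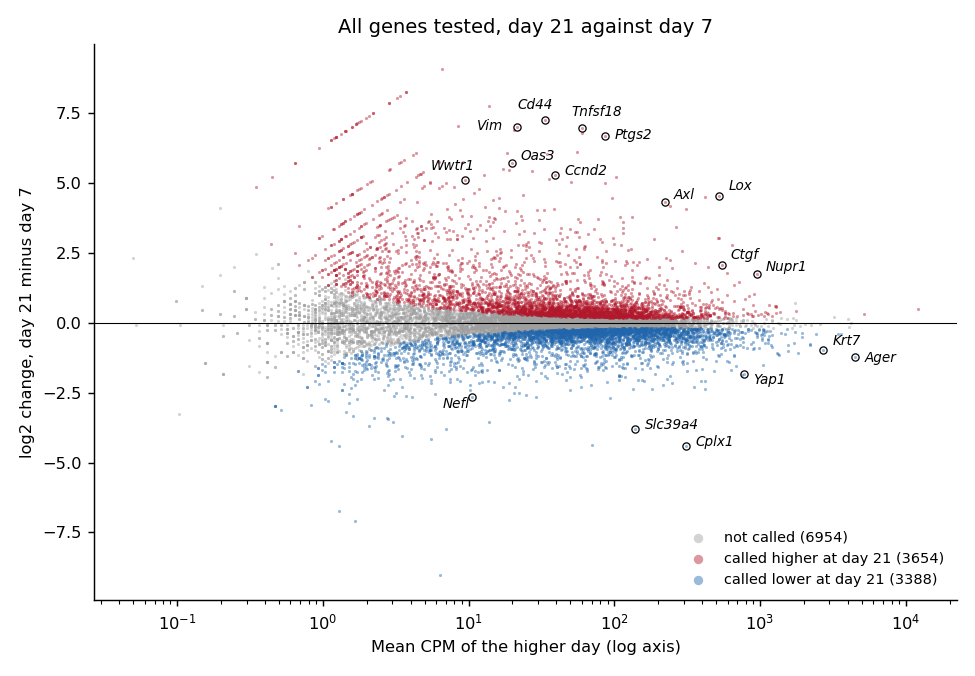
Each point is 1 of 13996 genes tested. The horizontal axis is the mean CPM of the higher day (log axis) and the vertical axis the log2 change, day 21 minus day 7. Red, 3654 genes called higher at day 21; blue, 3388 called lower; grey, 6954 not called; circles mark named genes. Changes beyond 4-fold lie mostly above 0.

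The coactivators moved in opposite directions over this interval. Yap1, on chromosome 9, had 214 and 224 CPM at day 21, against 751 and 809 CPM at day 7, 3.56-fold lower. Its mean was 7.59 CPM at day 0 and 1154 CPM at day 3, so that the day 21 level remained above that of day 0. The interval was picked with this fall known, so the Yap1 values are a description, and transcripts of the transgene and of the cells' own gene are counted as 1. Wwtr1, the gene of TAZ, had 10.1 and 8.81 CPM at day 21, against 0.104 and 0.414 CPM at day 7 (log2 change 5.13, SE 0.387, edgeR adjusted p = 9.67e-11). Every day 21 library was above every day 7 library for Wwtr1, which a call nearly requires. The day 7 values rest on few counts, and a gene this near 0 at day 7 could hardly be called lower. The log2 change of Wwtr1 was 4.47 without day 7 replicate 1 and 6.35 without day 7 replicate 2. Rb1 had 30.3 and 27.2 CPM at day 21, against 30.2 and 31.8 CPM at day 7, and Trp53 had 6.59 and 5.74 CPM at day 21, against 6.45 and 5.8 CPM at day 7, neither past the threshold. Counts over a whole gene do not show a deletion of part of it.

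Genes of the Hippo pathway fell more often than they rose. Of 33 listed, 31 were tested, 17 were lower and 5 higher, and the median log2 change was -0.36, beside 0.01 over all genes tested. Yap1, with whose fall the interval was picked, is 1 of the 17; without it 16 of 30 were lower and 5 higher, with a median of -0.31. Tead1, which encodes a DNA-binding partner of YAP, had 675 and 742 CPM at day 21, against 1019 and 1053 CPM at day 7 (log2 change -0.55, SE 0.0767, edgeR adjusted p = 1.92e-06). Tead4 was also lower, at 1.29-fold, and Tead2 ran the other way with 17.3 and 18.6 CPM at day 21, against 4.26 and 4.25 CPM at day 7 (log2 change 2.07, SE 0.172, edgeR adjusted p = 3.30e-10). Among the upstream activators, Nf2 (merlin) had 207 and 223 CPM at day 21, against 351 and 341 CPM at day 7, a 1.61-fold fall, and Wwc1 (KIBRA) was 1.47-fold lower with 425 and 487 CPM at day 21, against 676 and 666 CPM at day 7. The kinase genes Stk4 (MST1) and Taok2 fell by 1.64-fold and 1.69-fold, whereas Stk3 (MST2) did not pass the test. Angiomotins, which hold YAP at junctions, split: Amot was 2.91-fold higher with 94.7 and 89.7 CPM at day 21, against 34.5 and 28.9 CPM at day 7, Amotl1 1.26-fold higher, and Amotl2 fell. Vgll3, a TEAD cofactor, was 6.08-fold higher at a mean of 5.43 CPM at day 21 and 0.883 CPM at day 7, and Vgll4, which competes with YAP for TEAD, was 1.32-fold lower.

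The canonical targets of YAP and TAZ divided, with most rising while Yap1 fell. Of 30 listed, 28 were tested; 17 were higher (60.7%, beside 26.1% of all genes) and 7 lower (beside 24.2%), with a median log2 change of 0.40. Ctgf, a secreted matricellular protein and a classical YAP target, had 547 and 544 CPM at day 21, against 128 and 128 CPM at day 7 (log2 change 2.09, SE 0.073, edgeR adjusted p = 7.38e-17). Axl, a receptor tyrosine kinase, had 223 and 223 CPM at day 21, against 11.7 and 10.6 CPM at day 7 (log2 change 4.32, SE 0.107, edgeR adjusted p = 3.51e-20). Both days were tight for these genes and lay far apart. The ligand genes Tgfb2 (TGF-beta 2) and Edn1 (endothelin 1) rose as well: Tgfb2 had 89 and 76.2 CPM at day 21, against 11.2 and 11 CPM at day 7, and Edn1 had 32.8 and 29.7 CPM at day 21, against 3.85 and 4.77 CPM at day 7. Ankrd1, a nuclear ankyrin repeat protein, had 468 and 451 CPM at day 21, against 216 and 208 CPM at day 7, a 2.17-fold rise. F3 (tissue factor) was 1.96-fold higher with 875 and 820.0 CPM at day 21, against 414 and 452 CPM at day 7, and Myof (myoferlin) 2.36-fold higher with 262 and 277 CPM at day 21, against 116 and 112 CPM at day 7. Cyr61, the closest relative of Ctgf on the list, rose by less, with 932 and 1102 CPM at day 21, against 825 and 800.5 CPM at day 7, 1.25-fold higher (edgeR adjusted p = 0.00382). The Cyr61 call was lost without day 7 replicate 2 and without day 21 replicate 2, where the log2 change was 0.30 and 0.18 in place of 0.32. The 7 that fell were Amotl2, Ajuba, Lats2, Tead1, Fstl1, Crim1 and Gadd45b, the last no longer past the threshold without day 7 replicate 1 or 2 (log2 change -0.28 and -0.25). Amotl2 had 613 and 752 CPM at day 21, against 1182 and 1183 CPM at day 7 (log2 change -0.79, SE 0.0962, edgeR adjusted p = 2.19e-07), Ajuba 239 and 283 CPM at day 21, against 409.9 and 412 CPM at day 7, and Lats2, the Hippo kinase that phosphorylates YAP, 252 and 287 CPM at day 21, against 413 and 406 CPM at day 7. Amotl2, Ajuba and Lats2 each act to restrain YAP or LATS, and with Tead1 they stand on both the target list and the Hippo list.

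Some targets of the 2 groups also differed in their levels on the earlier days. Amotl2, Ajuba and Lats2 were already at means of 582, 288 and 79.7 CPM at day 3, against 4.24, 0.189 and 0.141 CPM at day 0. Their highest means were at day 7, at 1183, 411 and 409.7 CPM. Axl, Tgfb2 and Edn1 were at 0.0923, 0.437 and 0.19 CPM at day 3, and at 11.1, 11.1 and 4.31 CPM at day 7. Their highest means were at day 21. Ctgf and Ankrd1 lay between, at 9.29 and 16.5 CPM at day 3 and still rising at day 21. Other targets that rose did not follow this: Amotl1, Cyr61 and F3 were already at means of 200, 187 and 137 CPM at day 3. These levels are given side by side as a description, since neighbouring intervals share the day 7 libraries. The highest day is also partly built in, as a gene called lower cannot be highest at day 21, nor one called higher at day 7.

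**Figure D2:**
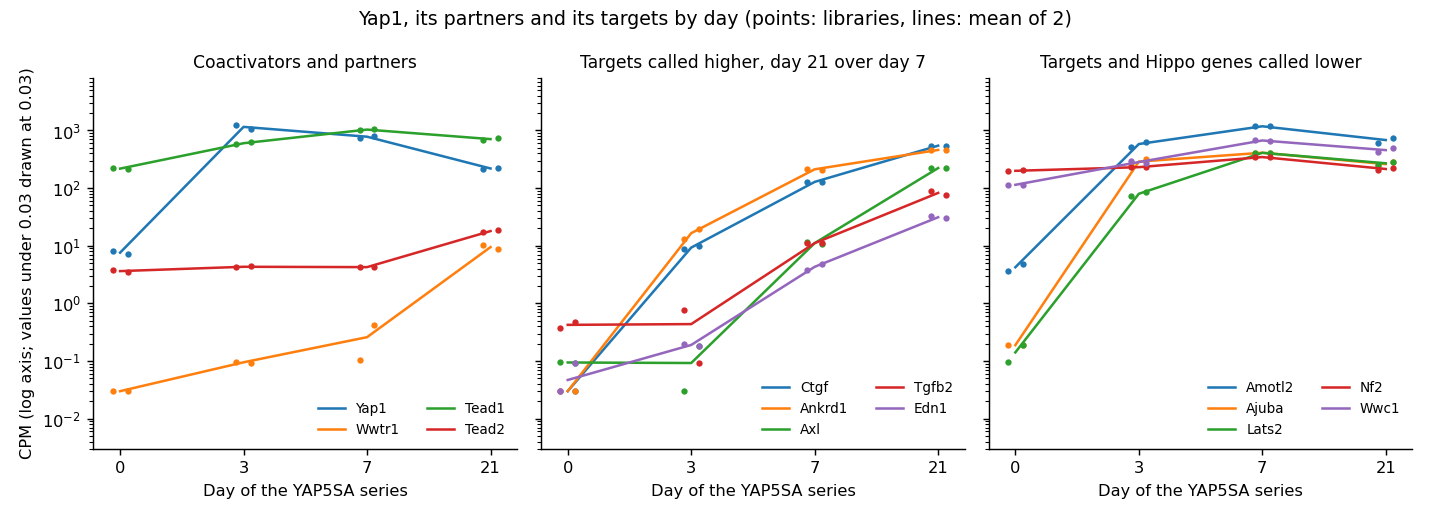
CPM (log axis) by day of the YAP5SA series, with days evenly spaced; points are libraries (2 a day), lines join the means, and values under 0.03 CPM are drawn at 0.03. Yap1 peaks at day 3 while Wwtr1 is highest at day 21; Ctgf, Ankrd1, Axl, Tgfb2 and Edn1 are highest at day 21, and Amotl2, Ajuba, Lats2, Nf2 and Wwc1 are highest at day 7.

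To look at what the diverging targets share in sequence, RefSeq promoter windows of 300 bases (250 before to 50 after a start, GRCm38.p6) were searched for the core TEAD motif GGAATG on both strands. Of 27025 genes with a window, 4481 (16.6%) held the motif, as did 1490 of 10233 tested genes (14.6%). Among tested YAP/TAZ targets it was in 9 of 19 with a window (47.4%), in 4 of 11 that rose (36.4%) and in 4 of 6 that fell (66.7%). A window was matched by symbol for 11 of the 17 targets that rose and 6 of the 7 that fell. These shares thus rest on few genes and leave members out. Among tested Hippo genes the motif was in 14 of 26 (53.9%), and among all genes that rose or fell in 14.7% and 15.2%. Shown are targets that rose (Ankrd1 and Axl) and targets that fell (Amotl2, Ajuba and Lats2), in gene orientation, with GGAATG or its reverse complement CATTCC in capitals. The positions are chr19:36119922-36120094, minus strand (Ankrd1), chr7:25788921-25788983, minus strand (Axl), chr9:102717699-102717784, plus strand (Amotl2), chr14:54577780-54577887, minus strand (Ajuba) and chr14:57746104-57746159, minus strand (Lats2).
Ankrd1: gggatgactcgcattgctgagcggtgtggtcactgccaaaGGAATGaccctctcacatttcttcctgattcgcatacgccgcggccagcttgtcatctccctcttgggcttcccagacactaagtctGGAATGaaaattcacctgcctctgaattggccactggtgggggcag
Axl: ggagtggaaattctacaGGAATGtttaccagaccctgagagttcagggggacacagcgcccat
Amotl2: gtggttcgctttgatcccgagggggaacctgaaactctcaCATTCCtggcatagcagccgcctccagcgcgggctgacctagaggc
Ajuba: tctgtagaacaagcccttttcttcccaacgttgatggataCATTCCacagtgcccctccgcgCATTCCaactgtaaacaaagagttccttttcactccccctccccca
Lats2: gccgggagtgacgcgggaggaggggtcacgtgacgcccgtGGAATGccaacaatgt
The same motif thus lies in the windows of genes of both directions, in Lats2 just after the start. A match describes the letters in this window only.

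Genes of the interferon response rose almost throughout. Of 55 listed, 51 were tested; 45 were higher (88.2%, beside 26.1% of all genes), 0 were lower, and the median log2 change was 1.17. At an unadjusted p below 0.05 the count lower was also 0. For 7 of the 51 the day 7 mean was below 1 CPM, and such genes passed the filter through the later day. The genes ranged from sensors to effectors. Oas3, an oligoadenylate synthetase that responds to double-stranded RNA, had 19.4 and 20.2 CPM at day 21, against 0.312 and 0.414 CPM at day 7 (log2 change 5.72, SE 0.295, edgeR adjusted p = 3.97e-14). Ifi44 had 78.3 and 54.6 CPM at day 21, against 7.39 and 7.36 CPM at day 7, 9.0-fold higher, and Irf7, the factor that amplifies interferon signalling, had 31.5 and 29.3 CPM at day 21, against 5.1 and 4.97 CPM at day 7 (log2 change 2.59, SE 0.158, edgeR adjusted p = 1.04e-12). Ifit1, which binds viral RNA, was 2.84-fold higher with 93.3 and 70.5 CPM at day 21, against 27.8 and 29.8 CPM at day 7, and the RNA sensor Ddx58 (RIG-I) 2.84-fold higher with 131 and 133 CPM at day 21, against 46.5 and 46.4 CPM at day 7. The libraries of the 2 days did not overlap for any of these genes, which a call nearly requires. Isg15, a ubiquitin-like modifier, had 19.3 and 21 CPM at day 21, against 9.57 and 12.6 CPM at day 7, 1.81-fold higher, and Rsad2 (viperin) 86.5 and 78.3 CPM at day 21, against 59.1 and 55.7 CPM at day 7, 1.44-fold higher. Stat2, a part of the factor that interferons activate, rose by 1.4-fold with 31.9 and 32.3 CPM at day 21, against 24.1 and 21.6 CPM at day 7 (edgeR adjusted p = 0.000824). Ifi202b, outside the list but among the steepest rises, had 24.7 and 13.4 CPM at day 21, against 0.52 and 0.311 CPM at day 7, with its day 21 libraries nearly 2-fold apart.

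The genes that sense nucleic acids or carry the interferon signal moved less. Of 29 listed, 27 were tested, 14 were higher and 4 lower, and the median log2 change was 0.22. Irf9 and Irf1 rose by 1.85-fold and 1.6-fold, and Mavs, the mitochondrial adaptor of the RNA sensors, by 1.43-fold. Tmem173, which encodes STING, fell by 1.4-fold, with 46.6 and 55.7 CPM at day 21, against 73.6 and 69.6 CPM at day 7, and so did the receptor chains Ifngr1 (1.34-fold) and Il10rb (1.46-fold). Ifnb1, which encodes interferon beta, was at 0 in all 4 libraries.

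The class I antigen presentation genes rose with them. Of 26 listed, 24 were tested; 20 were higher (83.3%), 2 lower, and the median log2 change was 0.65. B2m, the invariant chain of class I molecules, had 479 and 345 CPM at day 21, against 155 and 154 CPM at day 7 (log2 change 1.42, SE 0.135, edgeR adjusted p = 1.73e-06). The peptide loading gene Tapbp (tapasin) had 188 and 210.5 CPM at day 21, against 91.9 and 82.1 CPM at day 7, 2.29-fold higher, and the transporters Tap1 and Tap2 rose by 1.84-fold and 2.15-fold. Psmb8 and Psmb9, catalytic subunits of the immunoproteasome, rose by 2.86-fold and 3.88-fold; Psmb8 had 21 and 16.4 CPM at day 21, against 6.24 and 6.84 CPM at day 7. H2-K1, which encodes a heavy chain, rose by less. It had 425 and 456 CPM at day 21, against 388 and 362 CPM at day 7, 1.17-fold higher, with a log2 change of 0.18 that was no longer past the threshold without day 7 replicate 2, and likewise at 0.16 without day 21 replicate 2. H2-Q7 rose by 4.13-fold from low counts, but H2-Q, H2-T, Oas and Ifit genes have near-identical copies, so how reads were divided among them is uncertain. The 2 that fell were Psme1, a proteasome activator subunit (115 and 129 CPM at day 21, against 177 and 159 CPM at day 7), and Tapbpl.

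**Figure D3:**
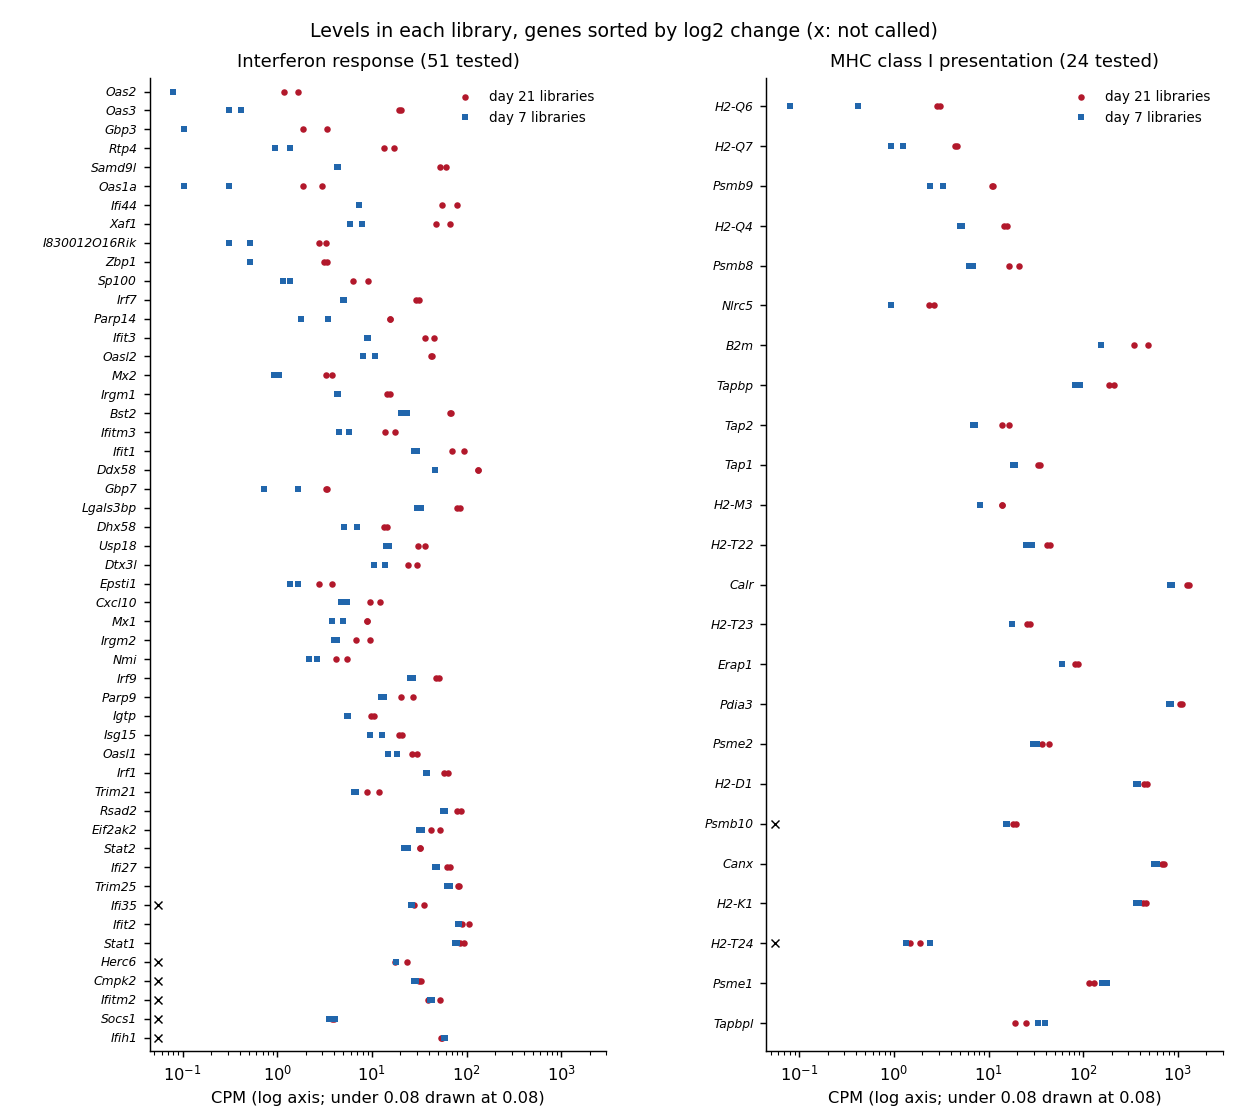
CPM of each library (log axis; values under 0.08 drawn at 0.08) for 51 interferon response genes and 24 class I presentation genes tested, sorted by log2 change; red circles are day 21 libraries, blue squares day 7 libraries, and x marks genes not called. Red lies right of blue in nearly every interferon row; Psme1 and Tapbpl at the foot of the right panel run the other way.

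Interferon response elements, read here as GAAANNGAAA on either strand of the same windows, were in 1079 of 27025 RefSeq genes (3.99%) and in 362 of 10233 tested genes (3.54%). They were in 21 of 39 tested interferon response genes with a window (53.9%), comprising 18 of 33 that rose (54.5%) and 3 of 6 not called. Among class I presentation genes that rose, 4 of 18 held one (22.2%). Over all genes the share was 4.96% (134 of 2701) among those that rose and 2.56% (63 of 2464) among those that fell. The stretches shown are from genes described above that rose (Isg15, Ifit1, Oas3, Rsad2 and B2m), with each element or its reverse complement TTTCNNTTTC in capitals; overlapping elements run together. The positions are chr4:156200835-156200936, minus strand (Isg15), chr19:34640745-34640853, plus strand (Ifit1), chr5:120777685-120777774, minus strand (Oas3), chr12:26456523-26456612, minus strand (Rsad2) and chr2:122147508-122147597, plus strand (B2m).
Isg15: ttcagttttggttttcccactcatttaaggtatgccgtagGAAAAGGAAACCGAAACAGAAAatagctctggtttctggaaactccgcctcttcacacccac
Ifit1: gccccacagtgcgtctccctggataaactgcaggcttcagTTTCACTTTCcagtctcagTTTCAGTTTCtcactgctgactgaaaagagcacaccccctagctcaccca
Oas3: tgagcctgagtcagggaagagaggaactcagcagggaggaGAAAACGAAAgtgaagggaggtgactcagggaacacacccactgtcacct
Rsad2: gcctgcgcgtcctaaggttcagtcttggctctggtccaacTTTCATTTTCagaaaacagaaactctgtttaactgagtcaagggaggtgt
B2m: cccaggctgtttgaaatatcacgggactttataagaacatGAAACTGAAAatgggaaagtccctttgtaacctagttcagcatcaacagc
Isg15 holds 3 overlapping elements and Ifit1 holds 2, although Oas3 with 1 rose by more than either.

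Ligands that immune cells read changed in both directions. Of 23 listed, 18 were tested, 8 were higher and 3 lower. Tnfsf18 (GITR ligand) was among the steepest rises of all genes, with 68.5 and 51.9 CPM at day 21, against 0.416 and 0.518 CPM at day 7 (log2 change 6.97, SE 0.255, edgeR adjusted p = 4.67e-16). Cd274 (PD-L1) had 122 and 122 CPM at day 21, against 27.8 and 26.9 CPM at day 7, and Ceacam1, an inhibitory adhesion receptor, had 96.8 and 78.8 CPM at day 21, against 15.6 and 14.2 CPM at day 7, 5.89-fold higher. The poliovirus receptor gene Pvr rose by 2.21-fold. Tnfsf9 (4-1BB ligand) fell by 2.29-fold, with 11.5 and 14.9 CPM at day 21, against 29.5 and 30.8 CPM at day 7. Of 34 cytokine and chemokine genes, 17 were tested, 10 were higher and 1, Csf1, was lower. For 4 of these 17, and for 5 of the 18 immune ligands, the day 7 mean was below 1 CPM. The filter thus fixed part of the direction in both counts. Tnfsf18 and Ptgs2 are among these genes and could hardly have been called lower. Ptgs2, the inducible cyclooxygenase, had 91.7 and 81.4 CPM at day 21, against 0.624 and 1.04 CPM at day 7 (log2 change 6.68, SE 0.196, edgeR adjusted p = 2.87e-18). Pla2g4a, which encodes the phospholipase that releases arachidonic acid, the substrate of Ptgs2, had 14.7 and 13.1 CPM at day 21, against 0.104 and 0 CPM at day 7. The day 7 libraries held 1 count of it between them, and the ratio of pooled counts was 267-fold (95% counting interval 47.6 to 10592). The chemokine genes Ccl20 and Ccl5 rose by 9.85-fold and 6.85-fold; Ccl20 had 24.3 and 24 CPM at day 21, against 2.29 and 2.59 CPM at day 7 and Ccl5 20.4 and 23.2 CPM at day 21, against 3.54 and 2.8 CPM at day 7. In the complement list, 9 of 20 were tested, 3 were higher and 4 lower, and for 4 of the 9 the day 7 mean was below 1 CPM. C3, the central complement component, had 15.1 and 14 CPM at day 21, against 96 and 90.7 CPM at day 7 (log2 change -2.68, SE 0.132, edgeR adjusted p = 1.62e-14), and Cd59a, an inhibitor of the membrane attack complex, had 102 and 96.8 CPM at day 21, against 421 and 421 CPM at day 7, a 4.23-fold fall. C3 had a mean of 16.7 CPM at day 3, so day 7 was its highest day, whereas Cd59a had stood at 439 CPM at day 3 already.

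Mesenchymal and matrix genes were among the steepest rises. Of 26 mesenchymal genes 20 were tested, 14 were higher and 2 lower, with a median log2 change of 1.79. Of 42 collagen and matrix genes 29 were tested, 19 were higher and 4 lower, with a median of 1.14. For 6 of the 20 and 5 of the 29 the day 7 mean was below 1 CPM. The filter thus fixed part of the direction in these counts and medians. Without day 7 replicate 1 the count of matrix genes lower was 2. Vim (vimentin) had 23.8 and 19.4 CPM at day 21, against 0.208 and 0.104 CPM at day 7. The day 7 libraries held 3 counts of Vim between them, and the ratio of pooled counts was 139-fold (95% counting interval 47.2 to 676). Cd44, a hyaluronan receptor, had 43.9 and 23.1 CPM at day 21, against 0.312 and 0.104 CPM at day 7 (log2 change 7.25, SE 0.569, edgeR adjusted p = 4.97e-07). The day 21 libraries were uneven for Cd44, and both lay above day 7; without day 7 replicate 1 the log2 change was 8.17. Fn1 (fibronectin) had 79.5 and 66 CPM at day 21, against 7.59 and 6.53 CPM at day 7, 10.3-fold higher, and Acta2 (smooth muscle actin) 20.4 and 16.5 CPM at day 21, against 0.312 and 0.207 CPM at day 7, 68-fold higher. Lox, the lysyl oxidase that crosslinks collagen, had 559 and 489.8 CPM at day 21, against 22.9 and 21.8 CPM at day 7 (log2 change 4.55, SE 0.098, edgeR adjusted p = 4.94e-21). Tnc (tenascin C) was 22.4-fold higher with 100.2 and 93.1 CPM at day 21, against 4.47 and 4.14 CPM at day 7, and Col5a2, a fibrillar collagen chain, 10.7-fold higher with 271 and 256 CPM at day 21, against 25.8 and 23.2 CPM at day 7. The chains of collagen IV, which form basement membranes, rose together: Col4a1, Col4a2, Col4a3, Col4a4 and Col4a5 were 8.27-fold, 3.15-fold, 3.44-fold, 2.2-fold and 6.88-fold higher. Cdh2 (N-cadherin) went the other way, with 107 and 103 CPM at day 21, against 174 and 172 CPM at day 7, 1.65-fold lower, as did Col18a1, 1.82-fold lower. Cdh2 had averaged 104 CPM at day 0 and 99.9 CPM at day 3, so day 7 was its highest day. The mesenchymal transcription factor genes Zeb1, Zeb2, Snai2, Twist1, Twist2 and Prrx1 did not pass the count filter. Snai1, also listed, did pass and was called 3.65-fold higher from low counts. It had 1.77 and 2.08 CPM at day 21, against 0.416 and 0.622 CPM at day 7.

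Receptors for matrix rose alongside their ligands. Of 29 integrin and laminin genes 23 were tested, 14 were higher and 4 lower, with a median log2 change of 1.22. Itgav and Itgb3, whose products pair as a vitronectin receptor, were both higher: Itgav had 61.8 and 54 CPM at day 21, against 4.26 and 5.28 CPM at day 7, and Itgb3 had 104 and 94.4 CPM at day 21, against 15 and 12.7 CPM at day 7. Itga5, the alpha chain of the fibronectin receptor, was 6.2-fold higher. Itgb6, which pairs with Itgav in epithelia, was 2.05-fold higher with 191 and 184 CPM at day 21, against 89.9 and 92.7 CPM at day 7. Lama3 and Lamb3, chains of laminin 332, were 5.07-fold and 2.31-fold higher, and Lama5, a chain of laminins common in lung basement membranes, 2.56-fold higher with 577 and 746 CPM at day 21, against 259 and 257 CPM at day 7. Of 34 proteases and inhibitors 22 were tested, 13 were higher and 5 lower. The membrane metalloproteinase genes Mmp14 and Mmp15 rose by 3.3-fold and 4.61-fold, and Mmp24 fell by 3.03-fold. Among 36 of 37 actin and focal adhesion genes tested, 19 were higher and 9 lower, with a median of 0.25. Acta2 led these, followed by Cav1 (caveolin 1) at 18.1-fold higher, and Lmo7 fell with 1249 and 1316 CPM at day 21, against 2195 and 2184 CPM at day 7.

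Junction genes and keratins changed in both directions. Of 46 junction genes 37 were tested, 16 were higher and 9 lower. Cdh1 (E-cadherin) had 1292 and 1280.2 CPM at day 21, against 1016 and 1010.2 CPM at day 7, 1.27-fold higher (edgeR adjusted p = 0.000508), and thus rose with the mesenchymal list. Cdh3 (P-cadherin) was 5.12-fold higher and Cgn (cingulin), a tight junction protein, 1.75-fold lower. Of 16 keratins 10 were tested, 5 were higher and 2 lower. Krt17 had 32.3 and 33.9 CPM at day 21, against 1.98 and 1.97 CPM at day 7 (log2 change 4.06, SE 0.188, edgeR adjusted p = 5.01e-15), and Krt14, a basal cell keratin, 50.4 and 46.3 CPM at day 21, against 7.7 and 10.4 CPM at day 7. Krt7 and Krt4 fell; Krt7 had 1342 and 1457 CPM at day 21, against 2790.5 and 2647 CPM at day 7 and Krt4 72.2 and 73.5 CPM at day 21, against 347 and 362 CPM at day 7. Krt19, a keratin of simple and ductal epithelia, was 1.34-fold higher with 881 and 974 CPM at day 21, against 695 and 691 CPM at day 7. Of 12 basal cell genes 8 were tested, 4 were higher and 1 lower, and Trp63, Krt5 and Krt15, which define basal cells, did not pass the count filter.

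Markers of alveolar type I cells, the thin cells of gas exchange, split about evenly. Of 29 listed 27 were tested, 11 were higher (40.7%) and 13 lower (48.1%), and the median log2 change was -0.23. Ager, a receptor abundant on type I cells, had 1739.8 and 2190.1 CPM at day 21, against 4752 and 4291 CPM at day 7 (log2 change -1.20, SE 0.12, edgeR adjusted p = 7.15e-08). The epithelial sodium channel genes Scnn1a and Scnn1g fell by 1.89-fold and 2.35-fold, and Emp2 by 1.32-fold; Scnn1a had 485 and 565 CPM at day 21, against 996 and 984 CPM at day 7. Pdpn (podoplanin) rose, with 759 and 679 CPM at day 21, against 269 and 253 CPM at day 7 (log2 change 1.46, SE 0.0743, edgeR adjusted p = 3.17e-14). Cav1 had 263 and 222 CPM at day 21, against 14 and 12.7 CPM at day 7, Bmp4 126 and 105 CPM at day 21, against 11.2 and 10.9 CPM at day 7, and Clic5, an intracellular chloride channel protein, 902 and 904 CPM at day 21, against 581 and 564 CPM at day 7, a 1.58-fold rise. Levels at day 0 varied among these markers. Krt7, a type I marker that fell, averaged 657 CPM at day 0, whereas Ager, Pdpn and Cav1 averaged 4.9, 0.236 and 0 CPM. Day 7 was thus the highest of the 4 days for Ager, at 4521 CPM, and day 21 for Pdpn and Cav1, at 719 and 242 CPM.

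Surfactant and airway genes changed in both directions. Sftpc, Sftpb, Scgb1a1 and Bpifa1 rose from near 0 at day 7 and were low at day 21. Others rose from higher levels: Gsto1, on the airway list, had means of 37.6 CPM at day 7 and 113 CPM at day 21. Sftpd, on the type II list, had means of 4.36 CPM at day 7 and 14 CPM at day 21. Of 20 type II cell genes 13 were tested, 8 were higher and 2 lower. Sftpc, the surfactant protein gene that marks type II cells, had 6.2 and 6.34 CPM at day 21, against 0.312 and 0.104 CPM at day 7. Its mean at day 0 was 3.63 CPM. Sftpb had 4.53 and 4.95 CPM at day 21, against 0.416 and 0.414 CPM at day 7. Of the 2 type II genes that fell, Napsa, an aspartic protease, had 28.9 and 46 CPM at day 21, against 70.8 and 66.6 CPM at day 7, 1.84-fold lower, and Lyz2 fell by 2.21-fold at low counts, a call lost without day 7 replicate 1 (log2 change -0.76) and without day 21 replicate 2 (-0.96), against -1.15 with all libraries. Abca3, a lipid transporter of lamellar bodies, did not pass the test, with 136 and 156 CPM at day 21, against 156 and 138 CPM at day 7, nor did Lpcat1. Without day 7 replicate 1 the log2 change of Sftpc was 5.76 in place of 4.84. Of 26 airway genes 15 were tested, 8 were higher and 2 lower. For 6 of these 15, and for 4 of the 13 type II genes, the day 7 mean was below 1 CPM. The filter thus fixed part of the direction in both counts. Scgb1a1, the club cell secretoglobin, had 22.4 and 18.3 CPM at day 21, against 0.104 and 0.207 CPM at day 7, with 3 counts at day 7 and a ratio of pooled counts of 131-fold (95% counting interval 44.5 to 637). Bpifa1 had 0 counts at day 7, where 0 allows up to 3 counts or 0.156 CPM, and was at least 20.6-fold higher at 4.23 and 2.18 CPM. Lamp3 and Scgb3a2 did not pass the filter. Whether a few cells carry these transcripts or many carry little was not tested.

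**Figure D4:**
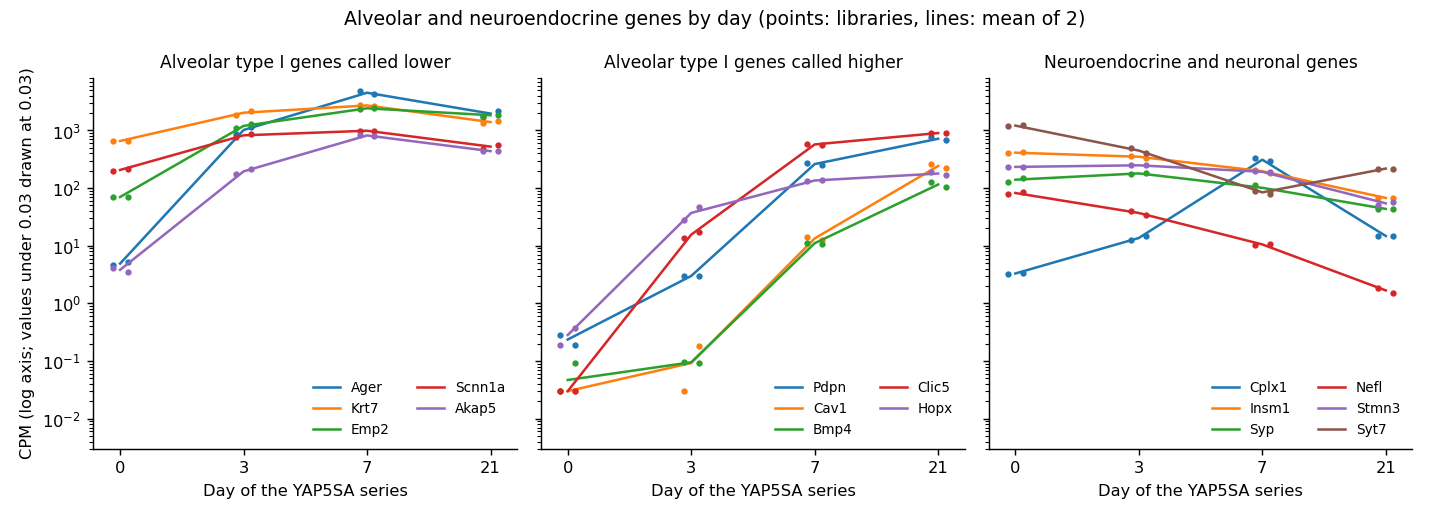
CPM (log axis) by day of the YAP5SA series, with days evenly spaced, for alveolar type I genes called lower, type I genes called higher and neuroendocrine or neuronal genes; points are libraries, lines join the means of 2. Ager is highest at day 7 and Pdpn and Cav1 at day 21, while Cplx1 peaks at day 7 and is back near its day 3 level at day 21.

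Synaptic and neuronal genes fell. Of 52 listed 49 were tested; 32 were lower (65.3%, beside 24.2% of all genes) and 5 higher, and the median log2 change was -0.78. Cplx1, a complexin that clamps vesicle fusion, fell furthest of all genes with at least 10 CPM and no overlap, with 14.8 and 14.8 CPM at day 21, against 330.3 and 292 CPM at day 7 (log2 change -4.40, SE 0.0986, edgeR adjusted p = 5.51e-21). Its mean was 3.3 CPM at day 0 and 13.6 CPM at day 3, so day 7 stood alone as its high point. The neurofilament genes Nefl and Nefm and the related Ina fell by 6.24-fold, 4.28-fold and 4.2-fold; Ina had 38.3 and 37.6 CPM at day 21, against 161 and 158 CPM at day 7. Stmn3 fell to 51.4 and 57.3 CPM at day 21, against 196 and 188 CPM at day 7, and Syp (synaptophysin), a clinical neuroendocrine marker, was 2.33-fold lower with 43.5 and 43.6 CPM at day 21, against 113 and 89.5 CPM at day 7. Syt7 (synaptotagmin 7) rose, with 219 and 218 CPM at day 21, against 89.5 and 79.3 CPM at day 7, 2.59-fold higher, and Syn2 rose by 2.8-fold. Ncam1, another clinical marker, was 1.32-fold higher with 150.4 and 162 CPM at day 21, against 118 and 119 CPM at day 7. Rest, the repressor of neuronal genes, was 2.24-fold higher with 30.8 and 35.3 CPM at day 21, against 15.7 and 13.8 CPM at day 7, and Srrm4, the splicing factor that inactivates REST, was 1.87-fold lower.

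Neuroendocrine transcription factors fell more often than they rose. Of 32 listed 25 were tested, 13 were lower and 3 higher, and the median log2 change was -0.43. Insm1, a zinc finger factor of neuroendocrine cells, had 67.4 and 67.6 CPM at day 21, against 207 and 185 CPM at day 7 (log2 change -1.54, SE 0.0837, edgeR adjusted p = 1.13e-13). Nkx2-1, the lung lineage factor, had 402 and 429 CPM at day 21, against 574 and 551 CPM at day 7, 1.35-fold lower, and the Notch ligand genes Dll1 and Dll3 fell by 2.28-fold and 1.91-fold. Neurod1 did not pass the count filter. Granins, hormones and their processing enzymes were divided, with 25 of 35 tested, 10 lower and 8 higher, and a median of -0.19. Vgf fell to 89.5 and 99.5 CPM at day 21, against 334 and 297 CPM at day 7. Its mean had been 88.3 CPM at day 0 and 135 CPM at day 3, so day 7 was its highest day. Scg5, a chaperone of Pcsk2, fell by 2.81-fold, with 34.9 and 23.2 CPM at day 21, against 83.4 and 79.9 CPM at day 7. The prohormone convertase genes Pcsk1 and Pcsk2 fell by 2.35-fold and 1.56-fold, while Ddc, which makes amines, rose by 3.47-fold with 55.8 and 47.2 CPM at day 21, against 14.7 and 15 CPM at day 7.

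Genes that set the series' Non-NE cultures apart from its NE cultures rose over the interval. The 200 genes highest in Non-NE relative to NE were chosen in the 3 libraries of each of those cultures, none of which is a day 7 or day 21 library. Of these 111 were tested, 99 were higher at day 21 (89.2%, beside 26.1% of all genes) and 4 lower, and the median log2 change was 2.60. The 4 that fell, named after their values were seen, were Ajuba, Lats2, Igf2bp1 and Sec16b. Igf2bp1, an RNA-binding protein, was no longer past the threshold without day 7 replicate 2 or without day 21 replicate 1 (log2 change -0.31 and -0.24), and without day 7 replicate 2 the share lower was 1.69%. For 39 of the 111 the day 7 mean was below 1 CPM, so the filter fixed part of that direction. All 200 genes highest in NE were tested, and 86 were lower (43%) and 50 higher (25%), with a median of -0.18. NE replicate 2 never exceeded day 0 replicate 1 in any gene and held 85.7% of its counts, so these NE and day 0 libraries are not independent of each other.

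Signalling lists held genes of both directions. In the TGF-beta and BMP list 35 of 36 were tested, 20 were higher and 7 lower, with a median log2 change of 0.47. Inhba, the activin A subunit, had 36.4 and 33.1 CPM at day 21, against 0.624 and 0.414 CPM at day 7 (log2 change 6.03, SE 0.248, edgeR adjusted p = 3.74e-15), and the ligand Bmp4 was 10.4-fold higher. The receptor genes Tgfbr1 and Tgfbr2 rose by 2.09-fold and 4.09-fold, and the feedback gene Smad7 by 3.5-fold. The BMP response genes Id1, Id2 and Id4 fell, by 1.92-fold, 2.33-fold and 2.18-fold; Id2 had 19 and 15.5 CPM at day 21, against 38.2 and 42.5 CPM at day 7. In the Wnt list 28 of 35 were tested, 12 were higher and 8 lower. Wnt7a rose to 279 and 310.4 CPM at day 21, against 149 and 148 CPM at day 7, while Wnt4 fell by 2.3-fold with 159 and 192 CPM at day 21, against 418 and 390.4 CPM at day 7. The receptor gene Fzd2 was 11.9-fold higher and Fzd5 1.76-fold lower. In the Notch list 24 of 28 were tested, 8 were higher and 7 lower; Notch2 rose by 1.77-fold and its ligand Jag2 fell by 1.56-fold. Immediate early genes fell more often than they rose, with 10 lower and 3 higher of 22 tested and a median of -0.30. Egr1 had 44.2 and 51.2 CPM at day 21, against 119 and 104 CPM at day 7, 2.34-fold lower, and Myc 93 and 97.5 CPM at day 21, against 179 and 179 CPM at day 7, 1.88-fold lower. Among growth factors and receptors 34 of 45 were tested, 17 were higher and 4 lower. Egfr was 1.86-fold higher with 184 and 188 CPM at day 21, against 102 and 98.3 CPM at day 7, Igf1r 2.71-fold higher, and Ereg (epiregulin), an EGFR ligand, had 34.2 and 27.2 CPM at day 21, against 4.68 and 3.52 CPM at day 7. Kit, the stem cell factor receptor, fell by 1.68-fold.

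Cell cycle genes were divided between small and large changes. All 30 listed G2/M genes were tested, 17 were higher (56.7%) and 0 lower, at a median log2 change of 0.25; the count lower at an unadjusted p below 0.05 was also 0. Without day 7 replicate 2, 11 were higher, and without day 21 replicate 2, 1 was lower. Top2a had 506 and 482 CPM at day 21, against 337 and 340.3 CPM at day 7, 1.46-fold higher, and Bub1 121 and 97.8 CPM at day 21, against 65.6 and 64.2 CPM at day 7, 1.68-fold higher. Mki67, the gene of the proliferation marker Ki-67, had 517 and 518 CPM at day 21, against 481 and 471 CPM at day 7, and did not pass the test. Of 37 replication genes 13 were higher and 3 lower. Ccnd2 (cyclin D2) had 39.2 and 39.7 CPM at day 21, against 0.936 and 1.04 CPM at day 7 (log2 change 5.30, SE 0.211, edgeR adjusted p = 1.93e-15). Cdkn1a (p21) had 101 and 105 CPM at day 21, against 197 and 201 CPM at day 7, 1.93-fold lower. Of 23 p53 target genes, in cells whose Trp53 alleles are floxed, 22 were tested, 9 were higher and 7 lower.

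Organelle genes divided by compartment. Lysosomal genes rose, with 22 higher and 1 lower of 30 tested of 32 listed and a median log2 change of 0.49. Ctsc, a cathepsin, had 66 and 53.4 CPM at day 21, against 0.312 and 0.725 CPM at day 7 (log2 change 6.81, SE 0.239, edgeR adjusted p = 7.86e-17, and 7.52 on the log2 scale without day 7 replicate 2), and Ctsh, another, 101 and 103 CPM at day 21, against 2.7 and 2.8 CPM at day 7. Psap (prosaposin) had 1266 and 1318 CPM at day 21, against 872 and 854 CPM at day 7, 1.5-fold higher. Genes of protein folding and stress in the endoplasmic reticulum rose in 20 of 30 cases and fell in 4, with a median of 0.39. Ddit3 (CHOP) was 2.68-fold higher with 156 and 145 CPM at day 21, against 51.9 and 60.1 CPM at day 7, and Calr (calreticulin) had 1321 and 1264 CPM at day 21, against 865 and 830.0 CPM at day 7. Atf5 and Asns, of the amino acid response, fell by 2.04-fold and 1.47-fold. Of 42 oxidative phosphorylation genes 18 were lower and 1 higher, and of 32 glycolysis and hypoxia genes 15 were lower and 6 higher. Eno1 and Aldoa, glycolytic enzymes, fell by 1.82-fold and 1.33-fold, whereas the glucose transporter Slc2a3 had 91.7 and 80.7 CPM at day 21, against 2.81 and 2.49 CPM at day 7. Gapdh, uneven in the day 21 pair, did not pass the test, with a log2 change of 0.91, of -0.48 without day 21 replicate 1 and of 1.58, past the threshold, without day 21 replicate 2, and its reads may be shared with its pseudogenes. Of 33 sterol and fatty acid genes 14 were lower and 1 higher. Scd1, a desaturase, rose by 2.16-fold. Cytosolic ribosomal protein genes were balanced, with 6 higher and 6 lower of 47.

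Several of the changed genes belong to none of these groups. Serpinb9b, a serpin, had 676 and 609 CPM at day 21, against 89.9 and 97.2 CPM at day 7 (log2 change 2.78, SE 0.0844, edgeR adjusted p = 1.83e-18). Mal, a membrane proteolipid, and Htra1, a secreted serine protease, were 8.28-fold and 8.3-fold higher; Mal had 575 and 474 CPM at day 21, against 60.5 and 66 CPM at day 7 and Htra1 508 and 526 CPM at day 21, against 57.1 and 67.5 CPM at day 7. Nupr1, a stress-induced nuclear protein, had 950.0 and 958 CPM at day 21, against 293 and 277 CPM at day 7, and Fhl1, a LIM domain protein, 934 and 886 CPM at day 21, against 448 and 449 CPM at day 7. Ndnf, a secreted factor, had 63.4 and 47.4 CPM at day 21, against 1.04 and 0.518 CPM at day 7. Among the falls, Slc39a4, a zinc importer, had 8.37 and 11.5 CPM at day 21, against 145 and 134 CPM at day 7 (log2 change -3.81, SE 0.129, edgeR adjusted p = 1.13e-17), and Nkx2-6, a homeobox gene, 0.787 and 1.58 CPM at day 21, against 13.6 and 14.1 CPM at day 7. The log2 change of Nkx2-6 was -3.53, and -4.13 without day 21 replicate 2. Ptgds (prostaglandin D2 synthase) was 6.34-fold lower, and Sstr5, a somatostatin receptor, 5.91-fold lower with 3.94 and 4.46 CPM at day 21, against 26.3 and 23.4 CPM at day 7. Cryab, a small heat shock protein, fell by 2.12-fold with 847 and 872 CPM at day 21, against 1914 and 1727 CPM at day 7. For Slc39a4, Nkx2-6 and Cryab day 7 was the highest day, with day 0 means of 0.0474, 0 and 1.36 CPM. Dcpp2, which rose 43.2-fold to 27.4 CPM, has near-identical neighbours and is uncertain.

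**Figure D5:**
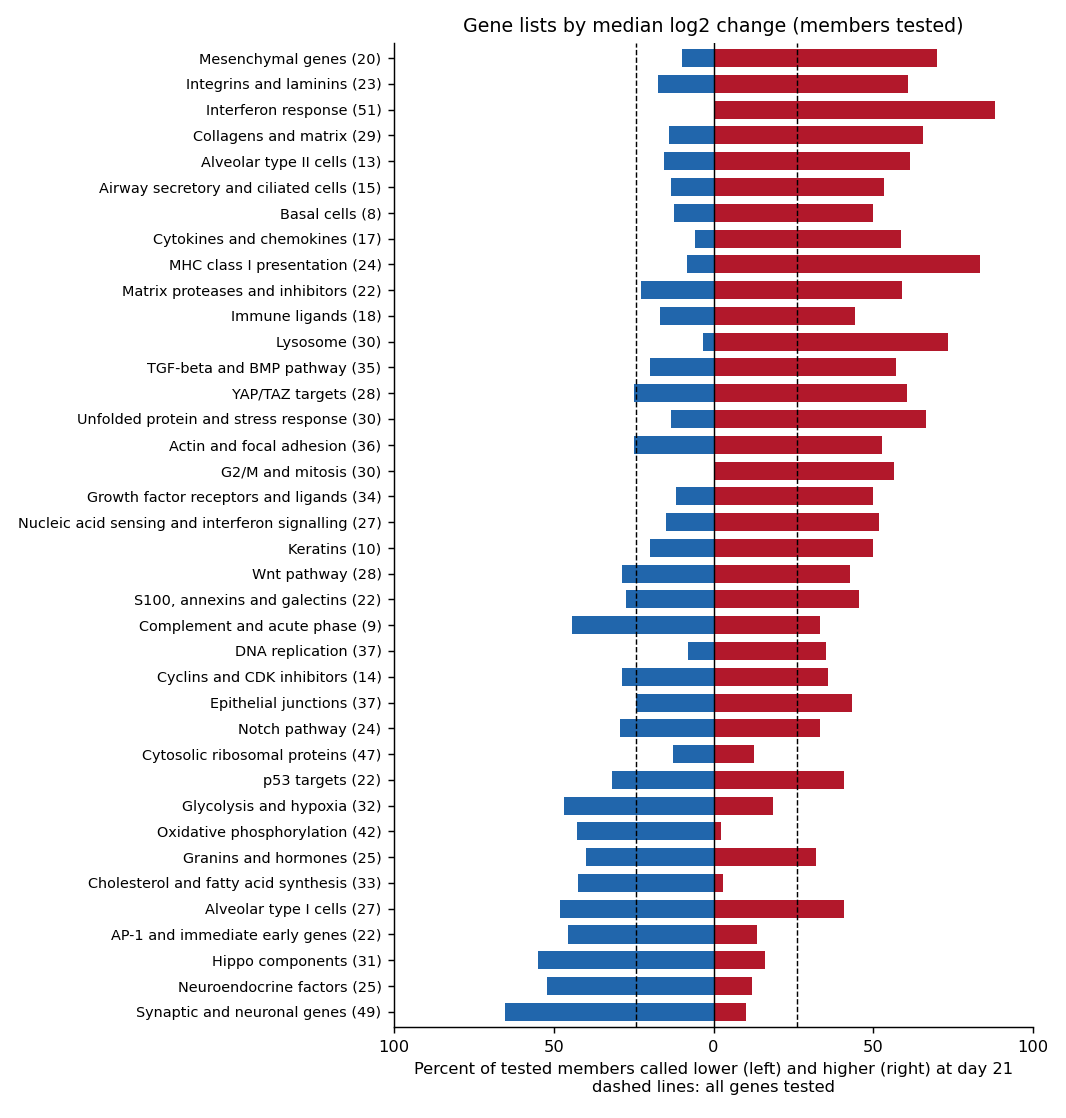
For each gene list with at least 8 tested members (number tested in brackets), bars give the percent of tested members called higher (right, red) and lower (left, blue) at day 21; dashed lines mark the shares over all genes tested, 26.1% and 24.2%. Lists run by median log2 change, with mesenchymal genes, integrins and laminins and the interferon response at the top and synaptic genes at the foot.

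Markers of cells other than the tumour cells were followed beside these groups. Of 13 fibroblast markers 5 were tested, 3 were higher and 1 lower; their summed level was 55.8 and 50.1 CPM at day 21, against 17.6 and 16.9 CPM at day 7. Thy1 made up much of that rise, with 30.3 and 23.4 CPM at day 21, against 5.62 and 4.25 CPM at day 7. Col3a1, Dcn, Lum, Tcf21, Dpt, Fbln1, Twist1 and Prrx1, the remaining fibroblast markers, did not pass the count filter, and 4 of them (Tcf21, Dpt, Twist1 and Prrx1) were at 0 in all 4 libraries. Of 20 haematopoietic markers 5 were tested, 2 were higher and 1 lower, with sums of 119 and 141 CPM at day 21, against 67.5 and 69.8 CPM at day 7, mostly Csf1r. Ptprc (CD45), which all leukocytes carry, was among the 6 of 20 at 0 in all 4 libraries. Of 12 endothelial markers 6 were tested, 2 were higher and 2 lower, with sums of 129.7 and 154 CPM at day 21, against 153 and 152 CPM at day 7, mostly Vwf. Pecam1 and Cdh5 did not pass the filter, and 3 of the 12 were at 0 in all 4 libraries. The part of other cells in the matrix, mesenchymal and immune results was not tested.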

How the data were processed

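RNA selected with oligo(dT) was sequenced in 14 libraries of a mouse small cell lung cancer model. STAR 2.4.2, featureCounts and the build mm10 are named in the submitters' processing notes; the annotation, the strand setting and the featureCounts version are not given in the sources used here. Counts were deposited by the authors as raw whole numbers for 32926 gene symbols, of which 10220 were 0 in all libraries. Libraries were grouped by their titles, and the 4 of days 21 and 7 held 10324520 to 10520200 counts each.

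Counts were scaled by TMM and genes with low counts removed with filterByExpr over the 8 YAP5SA libraries, which share 1 estimate of the spread (biological coefficient of variation 0.0548). Day 21 was set against day 7 by edgeR's robust quasi-likelihood test (edgeR 4.0.16, R 4.3.3), adjusted by Benjamini-Hochberg over all 13996 genes tested and called at 0.05. CPM are counts divided by the TMM-scaled library size. A group at 0 allows 3 counts, 0.148 CPM at day 21 and 0.156 CPM at day 7; with 1 to 3 counts the ratio of pooled counts is given with its exact 95% interval. These limits hold for counting error alone.

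Named genes were Yap1, Wwtr1 and the floxed genes; the 15 called genes that rose most and the 15 that fell most in log2, and the 10 each way in CPM, with at least 10 CPM on the higher day, no overlap between libraries and no clone name; and any member of the 41 gene lists (1169 symbols, 3 of them unmatched). The gene lists, the interval and this rule were chosen with earlier results of these data known. No gene list was tested as a set. Some named genes are not reported here. Promoter windows came from RefSeq (GRCm38.p6, the assembly of mm10); 10233 of the tested genes matched a window by symbol.

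On simulated data among 13598 genes the test called 90 of 100 with a 2-fold change and 100 of 100 with a 4-fold change. There were 10 false calls among 13398 unchanged genes. The simulation gave all genes and days the same spread and left nearly all genes unchanged. In the data 50.3% of genes were called and the day 21 pair was more uneven, so these counts are not an error rate for the data. Alternatives were DESeq2 1.42.0 size factors and test, library totals only, other count filters, limma-voom (limma 3.58.1), a 2-fold threshold, all 14 libraries or only the 4, a replicate block, and fits without single libraries. The deviations of same-numbered libraries from their day means correlated at -0.22 between days 7 and 21 and at -0.11 to 0.07 between other days. With 2 libraries a day this cannot settle whether the numbers pair the libraries, and the main fit did not pair them.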

Additional observations from a re-analysis of the deposited data

How the results depend on the processing

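Precision is limited by 2 libraries a day and by low counts at day 7, and a fit with 1 library on a day assumes that it varies like those of the other days. The 7042 calls became 7061 with DESeq2 size factors, 7083 with library totals only (4228 higher, 2855 lower), 7202 without a count filter, 5602 with the DESeq2 test, 6995 with limma-voom, 6688 with the 4 libraries alone and 6775 without day 0 replicate 1. The replicate block gave 6953 calls (3607 higher, 3346 lower) and changed no call of a named gene, whereas 136 of 216 named genes lost their call with all 14 libraries and 97 against the 2-fold threshold, and the crossed replicate block, added after the data were seen, gave 7119. Against a 2-fold threshold 879 genes were called (647 higher, 232 lower), and with all 14 libraries, whose spread is larger, 515 (274 higher, 241 lower). Under the 2-fold threshold and under all 14 libraries, counts higher were 8 and 5 for YAP/TAZ targets, 21 and 10 for interferon response, 7 and 2 for class I presentation, 0 and 0 for G2/M, 12 and 4 for matrix, 0 and 1 for neuroendocrine factors, 3 and 1 for granins and 4 and 3 for type I genes. Counts lower were 0 and 0 for YAP/TAZ targets, 0 and 0 for class I presentation, 0 and 0 for matrix, 2 and 2 for neuroendocrine factors, 3 and 1 for granins and 1 and 2 for type I genes. Of the Non-NE genes 0.901% were lower under the 2-fold threshold, and 28% higher and 0% lower with all 14 libraries; of the NE genes 7% and 4.5% were higher and 11% and 11% lower. Without a count filter 58.5% of the Non-NE genes were higher and 2.13% lower, over more genes tested, and with library totals 5 neuroendocrine factors were higher. Leaving out each library of days 21 and 7 in turn gave 11 to 17 G2/M genes higher and 0 to 1 lower, 2 to 5 matrix genes lower, and 1.69% to 3.48% of the Non-NE genes lower; the other counts and shares over these groups stayed within 1.5 times. The sign turned for Trp53 with the 4 libraries alone (-0.0041 in log2), and without 1 library (-0.093 to 0.089), for Abca3 with library totals only (0.045 in log2) and without 1 library (-0.13 to 0.081), and for Gapdh without 1 library (-0.48 to 1.58). The causes were not tested.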

Other observations

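Calcium-binding and membrane proteins outside the groups above also changed in both directions. Of 28 S100, annexin and galectin genes 22 were tested, 10 were higher and 6 lower at day 21, with a median log2 change of 0.19, beside 26.1% higher, 24.2% lower and 0.01 over all genes tested. Anxa8 had 18.5 and 15.9 CPM at day 21, against 0.208 and 0.518 CPM at day 7 (log2 change 5.52, SE 0.318, edgeR adjusted p = 1.48e-12), and a log2 change of 6.29 without day 7 replicate 2. S100a6 was 5.1-fold higher with 83.9 and 69.1 CPM at day 21, against 14.6 and 15.4 CPM at day 7, and Anxa1, an annexin that dampens inflammation, 2.0-fold higher with 677 and 504 CPM at day 21, against 288 and 302 CPM at day 7. S100a13 and S100a1 fell, by 2.58-fold and 1.74-fold, and S100a13 had 221 and 242 CPM at day 21, against 576 and 620.0 CPM at day 7. Lgals3 (galectin 3) fell by 1.55-fold.

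Among cyclins and inhibitors of their kinases 14 of 15 were tested, 5 were higher and 4 lower. Besides Ccnd2, Cdkn1c (p57) rose, with 22 and 23.1 CPM at day 21, against 6.97 and 6.63 CPM at day 7, 3.31-fold higher, and the pocket protein gene Rbl1 rose by 1.41-fold. Cdkn2c and Cdkn2d, inhibitors of the cyclin D kinases, fell by 1.44-fold and 1.58-fold. Among p53 targets, Plk2 and Trp53inp1 rose by 2.67-fold and 2.59-fold, while Phlda3 fell by 1.92-fold; Plk2 had 85.5 and 81.7 CPM at day 21, against 30.0 and 32.6 CPM at day 7.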
